A study of Mus musculus with 65 samples.

Results

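Cerebellum of 18-week-old knockin mice treated with an antisense oligonucleotide (ASO) against Atxn1 was compared with cerebellum of wild type mice of the same age. Members were taken from the column names of the count table. They came to 8 of the 65 libraries of the series, 4 from ASO-treated knockin mice and 4 from wild type mice given vehicle. A further 4 libraries, from knockin mice given vehicle, served to tell differences that remained after treatment from differences that were new. Knockin mice carried Atxn1[82Q], an Atxn1 allele with an expanded CAG repeat that codes for a long glutamine tract. All mice were labelled C57BL/6J. Total RNA of dissected cerebellum went into stranded libraries, and the series also sequenced medulla and pons. No cerebellum group paired the wild type genotype with the ASO, so an effect of the oligonucleotide in wild type tissue was not measured. Whether the libraries of a group are separate animals is not stated, so a p-value here speaks of differences among libraries and may reflect technical spread.

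Spinocerebellar ataxia type 1 is caused by an expanded glutamine tract in ataxin-1, a nuclear protein that acts with the transcriptional repressor Capicua. Purkinje cells, the inhibitory output neurons of the cerebellar cortex, are among the cells most affected, and genes of their calcium signalling and synaptic input are known to be lowered in mouse models. An ASO is a short, chemically modified nucleic acid that pairs with a transcript and leads to its cleavage by RNase H. Microglia are the resident phagocytes of the brain, and astrocytes include the Bergmann glia that surround Purkinje cell dendrites.

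Wild type libraries held 67.4 to 78.3 M counts, vehicle-treated knockin libraries 76.2 to 96.8 M and ASO-treated knockin libraries 90.1 to 119.1 M, so the ASO-treated and wild type ranges did not overlap. With the counts of each library thinned to the smallest total, and ASO knockin replicate 4 left out, the number of genes called was 333, as without thinning. Markers fitted the tissue label. Gabra6, a receptor subunit of cerebellar granule cells, ranged from 559 to 809 CPM (counts scaled for library size) over the 12 libraries, Zic1 from 638 to 790 CPM and the Purkinje cell gene Calb1 from 685 to 1330 CPM, while Hoxa5 and Hoxb5 of the more caudal hindbrain stayed between 0 and 0.209 CPM. Choroid plexus carried over to unequal degrees. Ttr, its transthyretin gene, was at 3.65 CPM in ASO knockin replicate 2 and between 429 and 6522 CPM in wild type.

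Of the 4 ASO-treated libraries, 2 stood apart, each in its own way. Replicate 3 differed in how its counts related to transcript length. Its genes deviated from the wild type mean by a median log2 difference of 0.72 in the class of genes with the shortest exons and of -0.57 in the class with the longest. The spread of these medians over 10 classes of equal size was 1.29 in replicate 3, against 0.065, 0.20 and 0.073 in replicates 1, 2 and 4. The library labelled ASO knockin replicate 4 lacked most of the new rises of the other 3. For most differences that remained it lay nearer to wild type than they did, as the next paragraphs show. Replicate 4 is called by its label throughout. Its Atxn1 level, unlike that of the other 3, lay inside the wild type range, though below all vehicle-treated knockin libraries. Whether its label is right was not tested. Log2 differences with it in the fit are given beside those without it for the genes and lists described in most detail. With all 12 libraries in the fit 0 genes passed edgeR's test, and 146 passed where replicate 4 was kept and replicate 3 left out.

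**Figure D1:**
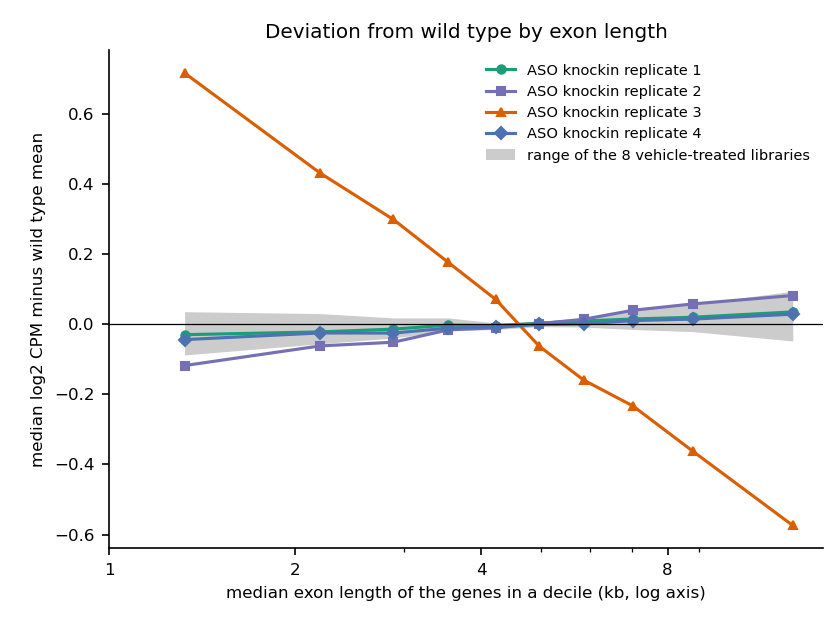
Median log2 deviation from the wild type mean (y axis) for 10 classes of exon length (x axis, shortest to longest) in each ASO-treated library; the grey band is the range of the 8 vehicle-treated libraries, each wild type library being set against the mean of the other 3. Replicate 3 ran from 0.72 to -0.57, and the other 3 libraries stayed much nearer to 0.

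Atxn1 (ENSMUSG00000046876, chromosome 13, 45549755 to 45965008 on GRCm38, minus strand) is the targeted gene and carries the expanded repeat. Its level was 47.3, 50.4, 56.6 and 46.4 CPM in wild type replicates 1 to 4, and 63.0, 65.0, 59.3 and 57.9 CPM in vehicle-treated knockin. In ASO-treated knockin it was 32.1, 39.4, 20.2 and 50.3 CPM. The first 3 ASO-treated libraries lay below every wild type library, and replicate 4 lay inside the wild type range and below all vehicle-treated knockin libraries. The mean was 35.5 ± 12.6 CPM (SD, n = 4), or 29.2% below wild type at 50.2 ± 4.63 CPM (SD, n = 4). An exact two-sided permutation test gave p = 0.0857, and edgeR a log2 difference of -0.50 (SE 0.20) with adjusted p = 0.39. Without replicate 4 the mean was 30.6 ± 9.69 CPM (SD, n = 3), 39.0% below wild type. The exact permutation p was then 0.0571, the smallest that 3 libraries against 4 can give, and edgeR's adjusted p was 0.079 at a log2 difference of -0.73 (SE 0.18). The call depended on the libraries and the tool. Without replicate 4, DESeq2 gave an adjusted p of 0.0052 and limma voom 0.0089. On other libraries edgeR's adjusted p was 0.0098 at -0.49 without replicates 3 and 4, 0.029 at -0.96 without replicates 2 and 4, and 0.25 at -0.31 without replicate 3. Against vehicle-treated knockin, the 4 ASO-treated libraries were all lower (exact permutation p = 0.0286, the smallest possible).

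Atxn1 has 13914 bases of exon, which puts it in the class of longest genes, where replicate 3 read low throughout. In that library Atxn1 stood at -1.31 on the log2 scale from the wild type mean, the median of its 1359 length-matched genes stood at -0.57, and 7.87% of them were lower still. In replicate 1 it stood at -0.64 against a median of 0.03, lower than all but 0.368% of those genes. In replicate 2 it stood at -0.34 against 0.08, lower than all but 6.40% of those genes, and in replicate 4 at 0.01 against 0.03. The Atxn1 of replicate 3 was within the middle 90% of its length class. So was that of replicate 2, at a range from -0.43 to 0.50. Of the 3 libraries below wild type, replicate 1 alone was outside the middle 90%, which ran from -0.24 to 0.32 in it. The class took in genes whether or not they differ by genotype, so its spread is no measure of noise. Vehicle-treated knockin libraries did not enter this comparison, and the part of length in these Atxn1 values was not tested.

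**Figure D2:**
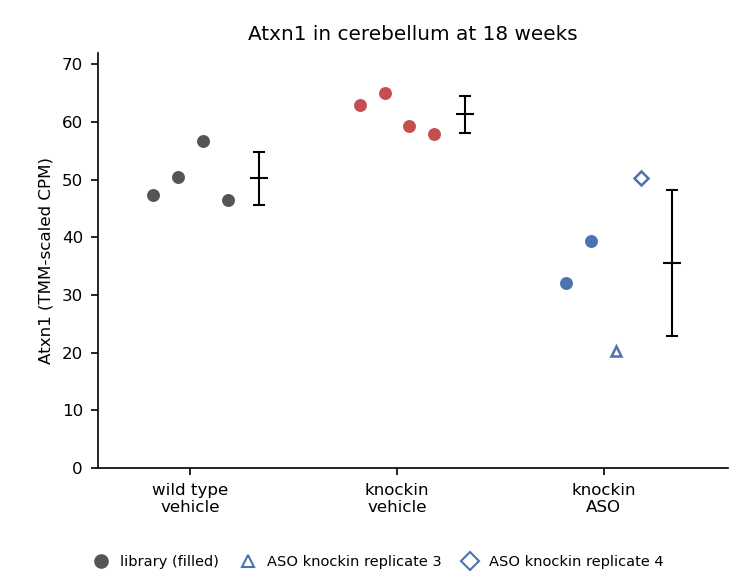
Atxn1 in CPM (y axis) by group and library, with the mean and SD of each group of 4; the open triangle is ASO knockin replicate 3 and the open diamond is replicate 4. The diamond, at 50.3 CPM, sits among the wild type libraries, and the other ASO-treated libraries at 20.2 to 39.4 CPM sit below them.

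With all 12 libraries in the fit, edgeR called 0 of 20350 genes between ASO-treated knockin and wild type at an adjusted p under 0.05 (0% of genes tested). The smallest adjusted p was 0.169, although 2235 genes had an unadjusted p under 0.05. On the same libraries DESeq2 called 419 genes, 152 higher and 267 lower, and limma voom with library quality weights called 397, 96 higher and 301 lower. Vehicle-treated knockin against wild type gave 552 calls (2.71%) in the same edgeR fit.

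Without ASO knockin replicate 4, edgeR called 333 of 20635 genes (1.61%), 131 higher and 202 lower, with a median log2 difference of 0.02 over all genes. Of these, 213 remained different: they were also called, in the same direction, in vehicle-treated knockin against wild type, 45 higher and 168 lower. That comparison called 628 genes in this fit (3.04%), 477 of them lower (2.31%). A further 30 were new after treatment, all of them higher. ASO-treated against vehicle-treated knockin called 44 genes, all higher (0.213%). New genes were called against wild type and against vehicle-treated knockin and were not called between the vehicle-treated groups. The other 90 passed neither set of conditions, and 0 were called in opposite directions. These comparisons share libraries, so the counts describe the call pattern and are no independent evidence of it.

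Leaving out replicate 3 in place of replicate 4 gave a different set. It held 146 of 20606 genes (0.709%), of which 136 remained different (vehicle-treated knockin against wild type called 14.1% of genes in that fit), 0 were new and 50 were among the 333. Without both libraries edgeR called 1336 of 20853 genes (6.41%), 559 higher and 777 lower, beside 14.3% called in vehicle-treated knockin. List counts given below without both libraries are read against these shares. Of the 1336 genes, 1078 remained and 48 were new. These held 212 of the 213 genes that remained and 29 of the 30 new genes named from the fit without replicate 4. Unless stated otherwise, log2 differences below are edgeR's without replicate 4, p-values are adjusted by the Benjamini-Hochberg method, and the 4 values of a group are CPM in replicates 1 to 4.

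Among the 45 genes that remained higher, Synpr had the smallest adjusted p. Synpr (synaptoporin, a synaptic vesicle membrane protein; chromosome 14, 13284780 to 13616340) was at 72.7, 69.4, 62.5 and 66.9 CPM in wild type, 162, 163, 150 and 137 CPM in vehicle-treated knockin and 146, 162, 166 and 69.8 CPM in ASO-treated knockin. The first 3 ASO-treated libraries lay within or just above the vehicle-treated knockin range and replicate 4 lay within the wild type range. Synpr rose by 1.2 on the log2 scale (2.30-fold, SE 0.08, edgeR adjusted p = 0.0002), beside 1.17 in vehicle-treated knockin. With replicate 4 its log2 difference was 1.00 (adjusted p = 0.17).

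Fam163b, whose function is little described, was at 7.37, 8.78, 9.10 and 9.21 CPM in wild type and 42.2, 44.5, 32.6 and 33.4 CPM in vehicle-treated knockin. ASO-treated libraries held 25.0, 37.7, 27.2 and 10.6 CPM, all above wild type and with replicate 4 nearest to it. It rose by 1.78 (SE 0.16, adjusted p = 0.00052), against 2.14 in vehicle-treated knockin, and with replicate 4 stood at 1.54 (adjusted p = 0.17). Marcks, an actin-binding substrate of protein kinase C, was at 119, 126, 100 and 119 CPM in wild type and 201, 213, 289 and 116 CPM in ASO-treated knockin. Its rise of 0.99 (adjusted p = 0.0022) stood beside 0.62 in vehicle-treated knockin, whose libraries held 166 to 193 CPM, and beside 0.82 (adjusted p = 0.2) with replicate 4. Also higher were Plppr1, a membrane protein of neurite outgrowth, by 1.68 (1.51 with replicate 4), and Comp, an extracellular matrix protein, by 0.84 (0.69 with replicate 4). Mndal rose by 1.64 (1.41 with replicate 4), but it belongs to a family of interferon-inducible paralogues among which reads could be split. Ccnd1, the cyclin D1 gene, rose by 0.39 (0.30 with replicate 4). It was the single called member of 17 tested Capicua target genes, whose median log2 difference was 0.05. Over all genes 0.635% were called higher and 0.979% lower. Vehicle-treated knockin had 1 rise and 2 falls in this list, and ASO-treated knockin without replicates 3 and 4 had as many. Ccnd1 was at 49.2, 51.6, 44.1 and 34.5 CPM in ASO-treated knockin and at 34.5 to 39.1 CPM in wild type.

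**Figure D3:**
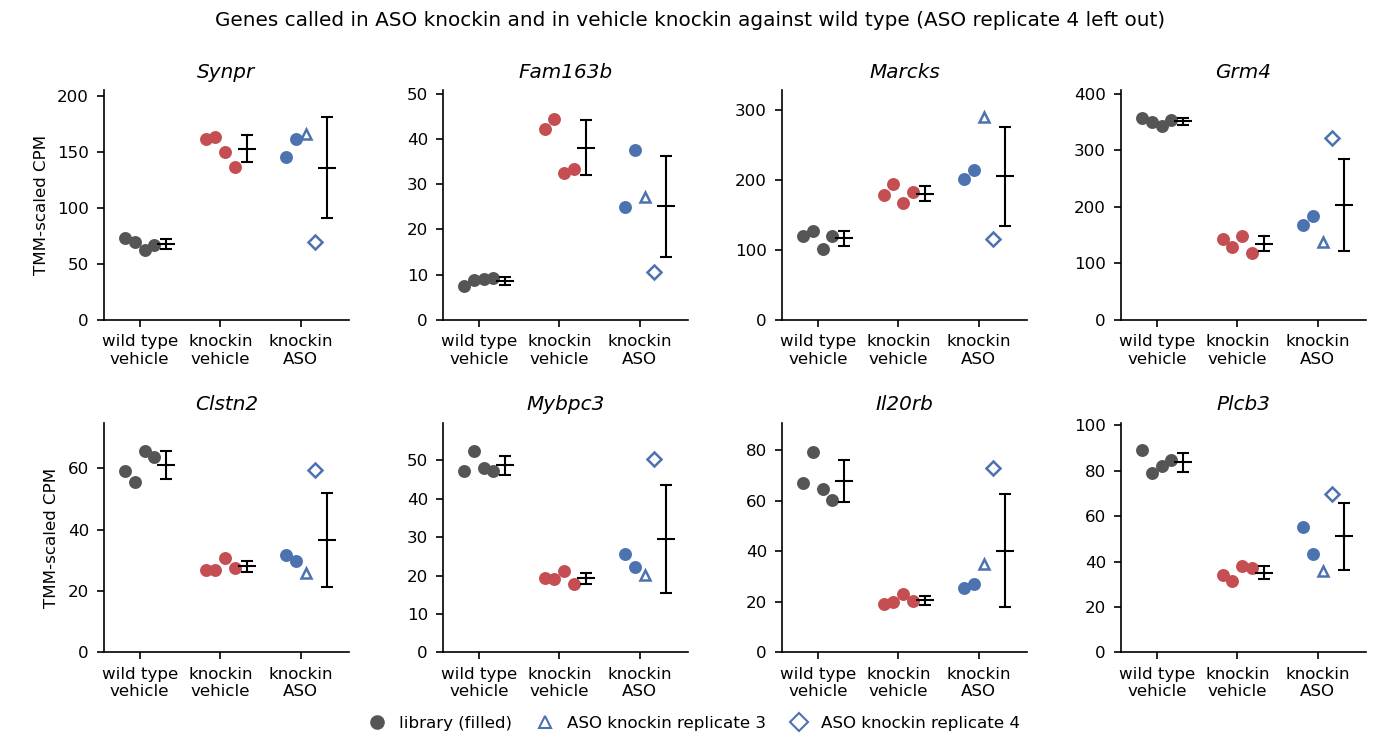
CPM by library (y axes) for 8 genes that remained different without ASO knockin replicate 4, with the mean and SD of each group of 4; open triangles and open diamonds are ASO knockin replicates 3 and 4. For Synpr, Mybpc3 and Il20rb the diamond lay within or at the edge of the wild type points, and the other ASO-treated libraries lay near the vehicle-treated knockin points.

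Grm4 (mGluR4, a presynaptic glutamate receptor of granule cell axons; chromosome 17, 27422387 to 27521403) was at 358, 350, 344 and 353 CPM in wild type. It was at 143, 129, 148 and 119 CPM in vehicle-treated knockin and at 167, 183, 138 and 322 CPM in ASO-treated knockin. Replicate 4 lay just below the wild type range, and the other 3 lay near the vehicle-treated knockin libraries. Grm4 fell by 1.12 on the log2 scale (SE 0.11, edgeR adjusted p = 0.00071), beside -1.39 in vehicle-treated knockin, and its difference with replicate 4 was -0.79 (adjusted p = 0.2).

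Clstn2 (calsyntenin-2, a postsynaptic adhesion protein) was at 59.1, 55.6, 65.7 and 63.5 CPM in wild type and 31.9, 29.8, 25.8 and 59.3 CPM in ASO-treated knockin. It fell by 1.08 (adjusted p = 0.00052), beside -1.13 in vehicle-treated knockin, and with replicate 4 stood at -0.73 (adjusted p = 0.23). Mybpc3, a myosin-binding protein best known from heart, was at 47.3, 52.5, 47.9 and 47.1 CPM in wild type and 25.6, 22.1, 20.2 and 50.3 CPM in ASO-treated knockin, a fall of 1.12 (-0.72 with replicate 4). Il20rb, a cytokine receptor subunit, was at 66.8, 79.4, 64.7 and 60.2 CPM in wild type, 25.4, 27.2, 34.9 and 73.1 CPM in ASO-treated knockin and 19.1 to 23 CPM in vehicle-treated knockin. In Mybpc3 and Il20rb the first 3 ASO-treated libraries lay far below wild type and replicate 4 lay among the wild type values. Il20rb fell by 1.23 and stood at -0.76 with replicate 4.

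Steeper falls were seen in genes of lower level. Myo15, an unconventional myosin, was at 7.0, 8.13, 5.73 and 6.68 CPM in wild type and 0.849, 1.68, 0.497 and 7.11 CPM in ASO-treated knockin, a fall of 2.78 (SE 0.37, adjusted p = 0.0046), and with replicate 4 it stood at -1.45 (adjusted p = 0.42). Car9, a carbonic anhydrase, was at 6.91 to 8.51 CPM in wild type and 2.56, 1.54, 1.88 and 8.47 CPM in ASO-treated knockin, a fall of 1.97 (-1.10 with replicate 4). Mirt1 fell by 1.74, Ccdc63 by 1.52, Unc13d, a vesicle priming factor, by 1.33, Rasal1, a Ras GTPase activator, by 1.23 and Gcnt1, a glycosyltransferase, by 1.13. Over all 213 genes that remained, the mean of the 3 ASO-treated libraries lay nearer to wild type than the vehicle-treated knockin mean did in 157. Replicate 4 lay on the wild type side of the other 3 ASO-treated libraries in 206, and inside the wild type range in 57. It was not past that range, in the direction of the other 3, in 62. In the rest of the 213 it was past the wild type range. The 213 genes were chosen with replicate 4 left out, because the other 3 lay away from wild type. The counts for replicate 4 follow in part from that choice and are a description. The 168 genes that remained lower were long, with a median of 4792 bases of exon against 3608 over all tested genes, and replicate 3 read long genes low. Its part in these falls was not tested, and 212 of the 213 genes that remained were also called without replicates 3 and 4.

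Purkinje cell markers were lower as a group, and fewer of them were called after treatment than in vehicle-treated knockin. Of 29 tested, 12 fell and 0 rose, with a median log2 difference of -0.49, against a background of 0.979% of genes called lower and a median of 0.02. In vehicle-treated knockin 19 fell, with a median of -0.71. These counts share the wild type libraries and their difference was not tested. They rest on 3 ASO-treated and 4 vehicle-treated knockin libraries. Without replicates 3 and 4 the counts were 23 in ASO-treated and 26 in vehicle-treated knockin. The mean log2 CPM of the list stood at -0.39, -0.62, -0.41 and -0.20 from the wild type mean in ASO-treated replicates 1 to 4, at -0.76 to -0.55 in vehicle-treated knockin and at -0.03 to 0.04 among wild type libraries. All 4 ASO-treated libraries thus lay below wild type on this score, and replicates 1, 3 and 4 lay above every vehicle-treated knockin library. The count of 12 was unsteady: it was 3 to 5 on leaving out any 1 wild type library, 0 with only both compared groups in the fit, 5 under the replicate block, 4 without ASO replicate 2, 6 without vehicle replicate 1 and 23 without replicate 3 as well. With replicate 4 in the fit the median was -0.37 and 0 passed, and with replicate 3 left out instead 4 fell. In bulk tissue, fewer Purkinje cells and less RNA per cell cannot be told apart.

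Calcium signalling downstream of mGluR1, the metabotropic glutamate receptor of Purkinje cells, was covered by a list that shares several genes with the Purkinje cell markers. Of its 19 tested genes 11 fell and 0 rose, with a median of -0.56, against 0.979% of all genes called lower and beside 12 falls and a median of -0.71 in vehicle-treated knockin. The count was 3 or 4 without any 1 wild type library, 4 without ASO replicate 2, 5 or 7 without vehicle replicate 1 or 2, 5 under the replicate block, 0 with only both compared groups in the fit and 15 without replicate 3 as well. With replicate 4 in the fit the median was -0.44 and 0 passed, and with replicate 3 left out instead 0 passed.

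Plcb3, a phospholipase C that couples the receptor to inositol trisphosphate, was at 88.9, 79.0, 81.9 and 84.4 CPM in wild type and 55.2, 43.5, 35.8 and 69.5 CPM in ASO-treated knockin. It fell by 0.91 (adjusted p = 0.0067), beside -1.26 in vehicle-treated knockin, and with replicate 4 stood at -0.71 (adjusted p = 0.17). Atp2a3, a calcium pump of the endoplasmic reticulum, fell by 0.82 (-0.65 with replicate 4), and its ASO-treated libraries at 228, 179, 169 and 279 CPM were all below the 324 to 362 CPM of wild type. The next genes were chosen after their values were seen. Itpr1, the inositol trisphosphate receptor, fell by 0.89, Car8, which binds that receptor, by 0.52, Inpp5a, which breaks down inositol trisphosphate, by 0.50, Homer3, a postsynaptic scaffold, by 0.64 and Rgs8, a regulator of G protein signalling, by 0.79. Ryr1, an intracellular calcium channel, fell by 0.83, beside -0.41 in vehicle-treated knockin. Replicate 3 held the lowest ASO-treated value of both channels, Itpr1 at 1817 CPM beside 3012, 2169 and 3496 CPM in replicates 1, 2 and 4, and Ryr1 at 35.4 CPM beside 62.2, 54.8 and 74.9 CPM. Calb1, Pcp2 and Cck did not pass. Calb1 (calbindin) was at -0.35 (adjusted p = 0.34), with 918, 752, 1330 and 1096 CPM in ASO-treated knockin against 1197 to 1282 CPM in wild type. Pcp2 was at -0.08 (adjusted p = 0.88) and Cck at -0.13 (adjusted p = 0.74), each with its highest ASO-treated value in replicate 3, at 602 and 45 CPM.

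Some genes were lower in every ASO-treated library and were called with either replicate 3 or replicate 4 left out. Lhx5, a homeodomain factor of Purkinje cells, was at 20.5, 19.5, 20.1 and 20.6 CPM in wild type, 10.3 to 11.5 CPM in vehicle-treated knockin and 13.1, 11.8, 15.3 and 15.8 CPM in ASO-treated knockin. The 3 groups did not overlap. Lhx5 fell by 0.61 (adjusted p = 0.0078), and by 0.58 (adjusted p = 0.029) where replicate 3 was left out in place of replicate 4. Slc32a1, the vesicular transporter of inhibitory neurons, was at 131, 119, 144 and 145 CPM in ASO-treated knockin against 168 to 173 CPM in wild type. It fell by 0.40 (adjusted p = 0.015), and by 0.38 (adjusted p = 0.029) without replicate 3. Fam107b, chosen after its values were seen, was at 146, 132, 164 and 156 CPM in ASO-treated knockin, between 75.7 to 85.8 CPM in vehicle-treated knockin and 185 to 197 CPM in wild type. It fell by 0.39 without replicate 4 and by 0.40 without replicate 3 (adjusted p = 0.029), beside -1.28 in vehicle-treated knockin.

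Other neuronal and channel lists are read against the 0.979% of all genes called lower and the 0.635% called higher without replicate 4. Of 25 potassium channel genes 4 fell, among them Kcnip4 (-0.45) and Kcna6 (-0.33), with a median of -0.21, and vehicle-treated knockin stood at a median of -0.22. Of 16 interneuron markers 2 fell, Slc32a1 and Prkcd (-0.58), with a median of -0.39 beside -0.18 in vehicle-treated knockin, and 9 fell without replicate 3 as well. Of 30 glutamate and GABA-A receptor subunit genes 3 fell, among them Gria3 (-0.59), an AMPA receptor subunit, with a median of -0.22. Granule cell markers gave 1 rise (Calb2, 0.89) and 1 fall (Grm4) of 20 tested, with a median of -0.15. Sodium, calcium and HCN channel genes gave 0 calls of 22, with a median of -0.15, and 5 rises and 5 falls without replicate 3 as well. The fit without replicates 3 and 4 called more genes at large, 559 higher and 777 lower of 20853. With all 12 libraries in the fit 0 genes of these lists passed. The medians were then -0.13 for potassium channels, -0.33 for interneuron markers, -0.17 for receptor subunits and -0.12 for granule cell markers. Scores of ASO-treated replicates 1 to 4 were -0.15, -0.02, -0.70 and 0.01 for potassium channels and -0.12, 0.01, -0.53 and -0.01 for receptor subunits. For sodium, calcium and HCN channels they were -0.02, 0.16, -0.59 and 0.06. Replicate 3 was far the lowest in each. Without replicates 3 and 4 the medians of these lists were -0.14, -0.09 and -0.05. With replicate 3 left out and replicate 4 kept, Slc32a1 fell and 1 of the 22 sodium, calcium and HCN channel genes rose. The other lists named so far in this paragraph gave 0 calls in that fit. Among 13 neurofilament and axon genes Gap43, a growth-cone protein, rose by 0.54, with 142, 179, 218 and 138 CPM in ASO-treated knockin against 120 to 125 CPM in wild type.

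Of the 30 new genes, 14 belonged to a list of 25 genes of activated microglia and phagocytosis. Over all genes, 30 of 20635 tested were new. The list was drawn up with earlier results of these libraries known, so the overlap is a description. Itgax (CD11c, an integrin subunit; chromosome 7, 128129547 to 128150657) was at 0.298, 0.296, 0.243 and 0.345 CPM in wild type, 0.182 to 0.364 CPM in vehicle-treated knockin and 2.91, 2.36, 2.07 and 0.200 CPM in ASO-treated knockin. The first 3 ASO-treated libraries lay far above all others, and replicate 4 lay below the wild type range. Itgax rose by 3.03 on the log2 scale (8.16-fold, SE 0.24, edgeR adjusted p = 0.00038), beside -0.08 in vehicle-treated knockin. Against vehicle-treated knockin its rise was 3.11 (adjusted p = 0.0009), and with replicate 4 its difference from wild type was 2.67 (adjusted p = 0.17).

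Clec7a (dectin-1, a receptor for fungal glucans; chromosome 6, 129461591 to 129472779, annotated as a polymorphic pseudogene) was at 0.790, 0.687, 1.27 and 0.751 CPM in wild type and 6.51, 4.98, 5.97 and 0.921 CPM in ASO-treated knockin. It rose by 2.71 (6.56-fold, SE 0.24, adjusted p = 0.00052), and with replicate 4 stood at 2.39 (adjusted p = 0.17). Lpl (lipoprotein lipase; chromosome 8, 68880491 to 68907448) was at 1.11, 1.39, 0.811 and 1.23 CPM in wild type and 6.55, 6.81, 8.88 and 1.34 CPM in ASO-treated knockin, a rise of 2.69 (2.38 with replicate 4). Both genes showed 3 high ASO-treated libraries, with replicate 4 at the wild type level. Cst7, a cysteine protease inhibitor chosen after its values were seen, was at 0.026 to 0.15 CPM in wild type and 2.09, 1.55, 3.08 and 0.089 CPM in ASO-treated knockin.

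Further new genes rose by smaller factors. Mpeg1, a pore-forming protein of phagocytes, was at 13.8 to 16.2 CPM in wild type and 38.4, 35.6, 29.5 and 15.5 CPM in ASO-treated knockin, a rise of 1.19 (adjusted p = 0.00052; 1.00 with replicate 4). Cd68, a lysosomal protein of phagocytes, was at 4.11 to 5.07 CPM in wild type and 11.7, 9.17, 11.9 and 3.89 CPM in ASO-treated knockin, a rise of 1.24 (1.00 with replicate 4). Trem2, a microglial lipid receptor, was at 7.27 to 7.86 CPM in wild type and 17.4, 15.0, 26.3 and 7.43 CPM in ASO-treated knockin, a rise of 1.37 (1.15 with replicate 4). Its signalling partner Tyrobp rose by 1.42, Cd84, an adhesion receptor of leukocytes, by 1.34, Cd52 by 1.82 and Fcrls by 1.36. The complement genes C1qa, C1qb and C1qc, chosen after their values were seen, rose by 1.28, 1.17 and 1.12. Of the 30 new genes, all had the 3 other ASO-treated libraries above replicate 4, and in 28 replicate 4 lay at or below the highest wild type library. These genes were chosen with replicate 4 left out, because the other 3 were high, so both counts follow in part from that choice.

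**Figure D4:**
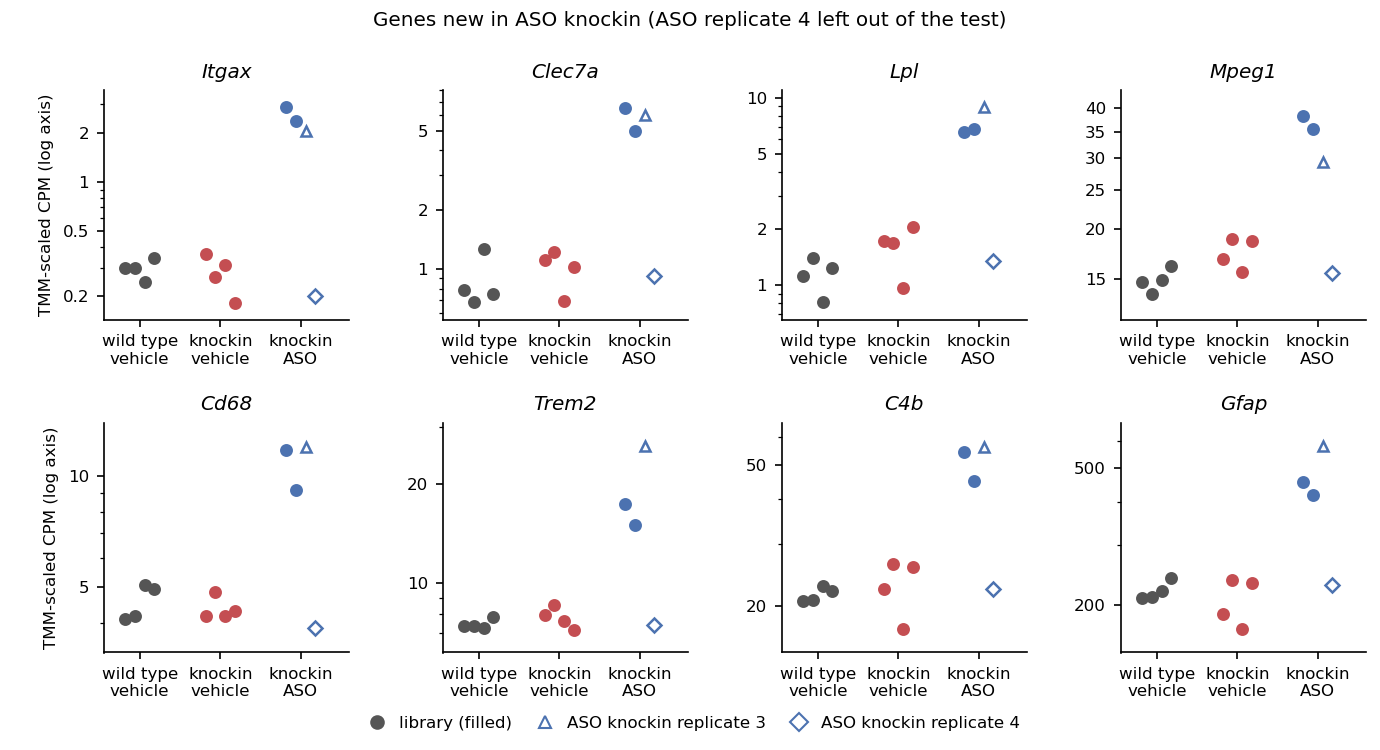
CPM by library on log axes for 8 of the genes new without ASO knockin replicate 4; open triangles and open diamonds are ASO knockin replicates 3 and 4. In each gene 3 ASO-treated libraries lay above all vehicle-treated libraries and the diamond lay near them, as for Itgax at 0.200 CPM.

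Among 25 genes of activated microglia and phagocytosis, 18 rose and 0 fell, with a median of 1.12, against a background of 0.635% of genes called higher. The list had 0 calls and a median of 0.01 in vehicle-treated knockin. With replicate 4 in the fit its median was 0.93 and 0 members passed edgeR's test, and 0 members were called where replicate 3 was left out instead. The list was drawn up with earlier results of these libraries known, so its count is not independent evidence of direction. Its score stood at 1.25, 0.98, 1.58 and -0.03 above the wild type mean in ASO-treated replicates 1 to 4, beside -0.11 to 0.22 in vehicle-treated knockin. Leaving out any 1 wild type library gave 15 or 16 calls, leaving out replicate 3 as well as 4 gave 18, the replicate block gave 11 and a fit of only both compared groups gave 12.

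Of 14 homeostatic microglia markers tested, 5 rose and 0 fell, with a median of 0.28, against 0.635% of all genes called higher, and Fcrls and Trem2 were among them. The count was 3 or 4 without any 1 wild type library, 2 under the replicate block or with only both compared groups, and 7 without replicate 3 as well. With replicate 4 in the fit the median was 0.26 and 0 passed, and 0 passed with replicate 3 left out instead. Markers that did not pass were chosen after their values were seen. Cx3cr1, the fractalkine receptor, stood at 0.27 (adjusted p = 0.26), P2ry12, a purinergic receptor, at 0.15, Tmem119 at 0.02 and Csf1r, the receptor that sustains microglia, at 0.03. The summed level of the list was 205.5 to 215.2 CPM in wild type and 272.3 to 320.3 CPM in ASO-treated replicates 1 to 3, and 214.8 CPM in replicate 4. Chemokine genes gave 3 rises of 15 tested, Ccl3 (3.3), Ccl6 (1.35) and Ccl9 (1.29), with a median of 0.59. With replicate 4 in the fit the median was 0.42 and 0 passed. With replicate 3 left out instead it was 0.24 and 0 passed. The summed level of the chemokine list was 134.5 to 139.5 CPM in wild type and 133.1 to 145.7 CPM in ASO-treated knockin. Ccl3 was at 0.081 to 0.225 CPM in wild type and 1.28, 0.962, 2.02 and 0.089 CPM in ASO-treated knockin, and it has near-identical paralogues.

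Markers of blood-borne cells were examined beside these. Of 11 markers of infiltrating myeloid cells 0 rose and 1 fell, Cd163, a scavenger receptor of macrophages, by 1.03. Over all genes 0.635% were called higher and 0.979% lower. The summed level of the 11 was 16.2 to 18.6 CPM in wild type, 12.5 to 19.4 CPM in vehicle-treated knockin and 10.9 to 15.2 CPM in ASO-treated knockin. That sum leans on Mrc1, at 6.00 to 7.45 CPM in wild type and 3.92 to 5.89 CPM in ASO-treated knockin. The score of the list, in which each marker counts alike, gave no such order. It stood at 0.05, -0.41, 0.16 and 0.14 in ASO-treated replicates 1 to 4 and at -0.15 to 0.12 among wild type libraries. Ccr2, which marks monocytes, was at 0.527 to 1.06 CPM in wild type and 0.654 to 0.755 CPM in ASO-treated knockin. Of 13 lymphocyte markers tested of 23 listed, 0 passed, and the summed level of the 23 was 9.99 to 12.2 CPM in wild type and 12 to 16 CPM in ASO-treated knockin. In both lists 0 markers were at 0 in all libraries. The part of unequal lymphocyte RNA in the microglial result was not tested. The 30 new genes were also short, with a median of 2199 bases of exon against 3608 over all tested genes, and replicate 3 read short genes high. Its part in the result was not tested, and 29 of the 30 were also called new without replicates 3 and 4.

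RefSeq promoter windows (GRCm38.p6, from 250 bases before to 50 after a start) were found for 22 of the 30 new genes. They were searched on both strands for GAGGAAGT, a sequence of the kind bound by PU.1, the factor that directs microglial and macrophage genes. It was present in 2 of their 24 windows (8.33%), against 2.85% of 17025 windows of all tested genes. The share rests on 2 windows and was not tested. Genes that remained lower held the sequence in 5 of 149 windows (3.36%) and genes that remained higher in 0 of 38. The 2 windows of new genes are printed with the match, which lies on the reverse strand, in capitals. They show what was found near the starts of genes that moved together. Ctss codes for a lysosomal protease and C1qc for a chain of complement C1q, and both were chosen after the search.
Ctss, chr3:95526536-95526835, plus strand: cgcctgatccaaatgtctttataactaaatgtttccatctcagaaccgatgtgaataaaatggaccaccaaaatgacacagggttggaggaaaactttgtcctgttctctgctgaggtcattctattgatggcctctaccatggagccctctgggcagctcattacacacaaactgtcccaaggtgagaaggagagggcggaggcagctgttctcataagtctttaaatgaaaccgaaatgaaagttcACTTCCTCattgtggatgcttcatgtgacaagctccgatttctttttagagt
C1qc, chr4:136892865-136893164, minus strand: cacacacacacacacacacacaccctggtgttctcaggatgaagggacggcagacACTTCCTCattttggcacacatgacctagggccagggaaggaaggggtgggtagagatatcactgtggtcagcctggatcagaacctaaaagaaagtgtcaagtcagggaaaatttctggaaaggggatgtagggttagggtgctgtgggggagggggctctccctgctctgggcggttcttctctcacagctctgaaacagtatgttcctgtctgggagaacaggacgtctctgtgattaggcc
A match describes letters in the window and shows no bound factor. The Capicua sequences TGAATGAA and TGAATGGA were present in 1 of 38 windows of genes that remained higher (2.63%, Rasa4) and 1 of 149 windows of genes that remained lower (0.671%, Stc2), against 1.70% of windows of all tested genes.

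Among astrocyte genes, Gfap (glial fibrillary acidic protein; chromosome 11, 102887336 to 102900912) was at 210, 212, 220 and 240 CPM in wild type, 188, 237, 171 and 232 CPM in vehicle-treated knockin and 455, 418, 579 and 229 CPM in ASO-treated knockin. Replicates 1 to 3 were clear of both vehicle-treated groups, and replicate 4 was within them. Gfap rose by 1.12 (2.17-fold, SE 0.13, edgeR adjusted p = 0.0022), and by 1.21 against vehicle-treated knockin (adjusted p = 0.003). With replicate 4 the difference from wild type was 0.93 (adjusted p = 0.18).

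Of 18 reactive astrocyte genes 3 rose and 0 fell, with a median of 0.37, against 0.635% of all genes called higher. With replicate 4 in the fit the median was 0.31 and 0 passed, 0 passed with replicate 3 left out instead, and 6 rose without both. The 3 were Gfap, Serpina3n, a protease inhibitor (1.90, and 1.67 with replicate 4), and C4b, complement C4 (1.25, and 1.05 with replicate 4), which was at 20.7 to 22.8 CPM in wild type and 54.5, 45, 56.3 and 22.4 CPM in ASO-treated knockin and has a close paralogue, C4a. Vehicle-treated knockin had 0 calls in that list and a median of -0.14. Astrocyte and Bergmann glia markers at large gave 1 rise (Gfap) and 1 fall of 20, with a median of -0.03. The fall was Gdf10, a growth factor of Bergmann glia, at 114, 99.8, 148 and 155 CPM against 173 to 221 CPM in wild type (-0.75, adjusted p = 0.02, and -0.63 with replicate 4). It remained from vehicle-treated knockin, where it stood at -0.81.

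**Figure D5:**
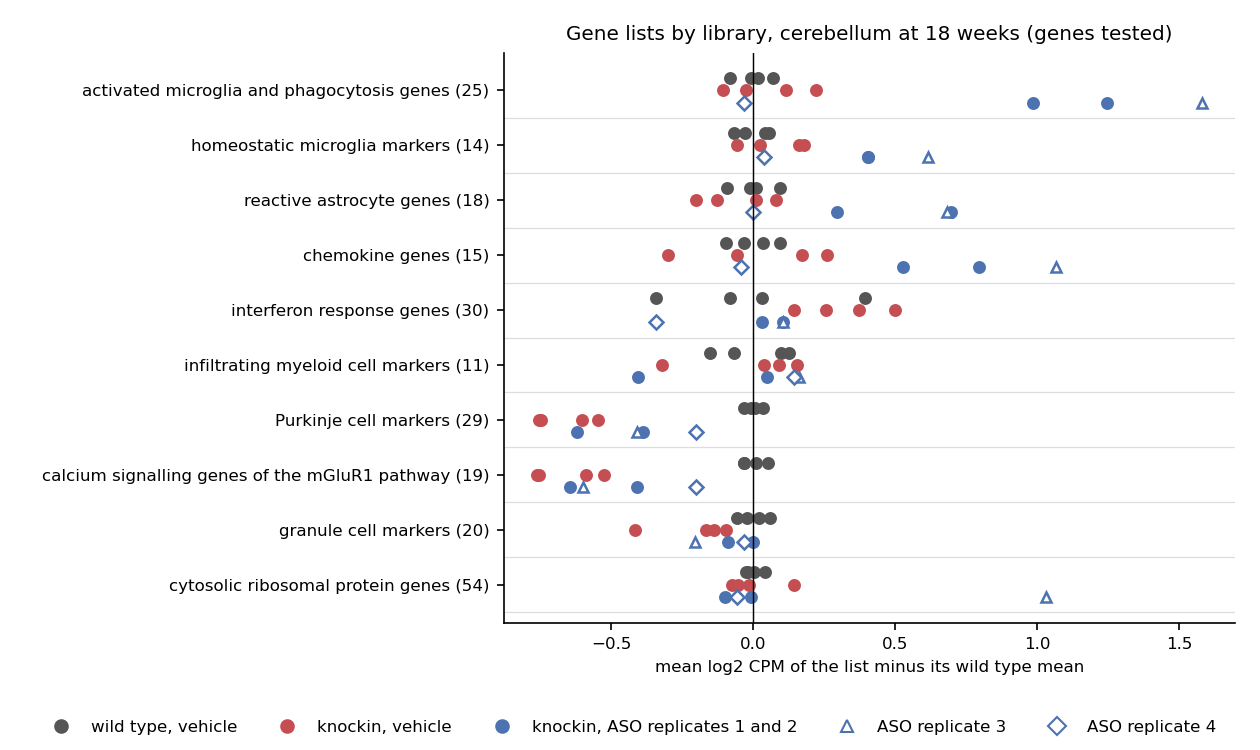
Mean log2 CPM of 10 gene lists minus the wild type mean (x axis) by library; open triangles and open diamonds are ASO knockin replicates 3 and 4. Activated microglia genes stood at 0.98 to 1.58 in ASO-treated replicates 1 to 3 and at -0.03 in replicate 4, and Purkinje cell markers stood at -0.62 to -0.20 in all 4.

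Several lists gave 0 calls in either direction by edgeR without replicate 4. They included 20 mature oligodendrocyte and myelin genes (median 0.10), 30 interferon response genes (0.06), 18 antigen presentation genes (0.11), 12 oligodendrocyte precursor markers (-0.12) and 13 mitochondrially encoded protein genes (-0.09). Cholesterol synthesis genes also gave 0 calls of 24, with a median of 0.28 and of 0.23 with replicate 4. Their score stood at 0.14, 0.15, 0.31 and 0.18 in ASO-treated replicates 1 to 4, above all wild type (-0.04 to 0.04) and vehicle-treated knockin libraries (-0.11 to 0.00), so replicate 4 shared this shift, which was not tested. Interferon response genes had a median of 0.31 and 1 rise in vehicle-treated knockin. Oligodendrocyte precursor markers scored -0.002, 0.003, -0.374 and -0.015 in ASO-treated replicates 1 to 4, so replicate 3 stood apart. Antigen presentation genes scored 0.23, -0.04, 0.20 and -0.20. In 2 further lists with 0 calls the ASO-treated libraries differed more widely among themselves. Cytosolic ribosomal protein genes had a median of 0.37 over 55 tested without replicate 4, and the 54 tested with it scored -0.01, -0.10, 1.03 and -0.06 in ASO-treated replicates 1 to 4. The 14 choroid plexus markers, with a median of -1.03, scored 0.84, -4.60, -2.42 and 0.60.

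Genes close to the target were examined whatever their value, and none passed. Atxn1l, the ataxin-1 paralogue, stood at -0.25 (adjusted p = 0.62), Cic, which codes for Capicua, at -0.29 (adjusted p = 0.48), Rora, a nuclear receptor of Purkinje cells, at -0.46 (adjusted p = 0.2) and Vegfa at 0.01 (adjusted p = 0.98). Cic was at 194, 188, 98.8 and 189 CPM in ASO-treated knockin and 193 to 196 CPM in wild type, so its difference came from replicate 3. Atxn1l was likewise at 25.6 CPM in replicate 3 and at 55.7 to 61.9 CPM in the other ASO-treated libraries. Without replicate 3, and with replicate 4, the differences were 0.04 for Atxn1l and -0.03 for Cic.

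Across the 552 genes called between vehicle-treated knockin and wild type in the fit of all libraries, each ASO-treated library was placed on the line from the wild type mean to the vehicle-treated knockin mean. The genes were chosen from those vehicle-treated libraries, so the placement is a description. Replicate 1 lay a median 59.3% of the way, replicate 2 79.4%, replicate 3 49.1% and replicate 4 26.1%. Replicate 4 was inside the wild type range for 151 of these genes and inside the vehicle-treated knockin range for 21, while replicate 2 was inside the wild type range for 24 and inside the vehicle-treated knockin range for 225.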

How the data were processed

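The authors deposited whole-number counts per gene for all 65 libraries. Per the submitters' processing notes, CASAVA 1.8, HISAT2 2.0.2, featureCounts of Subread, GRCm38, R 3.3.3 and DESeq2 1.14.1 were used. Strand and pair settings are not given in the sources used here, and reads of antisense or overlapping genes may be shared. Between 73.4% and 76.8% of counts from 1 to 20 were even. Symbols and positions came from GENCODE vM21, and the 345 of 49670 IDs without a symbol held 0.0701% of counts.

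The 12 cerebellum libraries, in 3 groups by label, were fitted in R 4.3.3 (edgeR 4.0.16, limma 3.58.1): TMM scaling, filterByExpr at a minimum count of 10, robust quasi-likelihood tests and Benjamini-Hochberg adjustment over all genes. A call is an adjusted p under 0.05. CPM are TMM-scaled. List scores are means of log2 CPM with a prior count of 2. Lists carry medians and counts, not tests. DESeq2 1.42.0 and limma voom were alternatives. The procedure was tested on simulated data.

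Named genes were Atxn1, Atxn1l, Cic, Rora, Calb1, Pcp2, Cck, Vegfa and Gfap, the 8 largest rises and falls (groups not overlapping, mean log2 CPM from 1 up), the 5 of smallest p that remained or were new in each direction, up to 3 called members of each of 36 lists, and any called in opposite directions. Genes with provisional symbols were counted and not named. Because the fit of all libraries called 0 genes, the rule was applied to the calls without ASO knockin replicate 4. Members and lists were chosen with earlier results of these data known. Same-numbered libraries were not treated as pairs. Some named genes are not reported here.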

Additional observations from a re-analysis of the deposited data

Results flagged for a closer look

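Within each group of 4 libraries, the lowest and the highest value of 60 named genes were set against the nearest other value. Of 180 such groups 12 held a library far from the others, and chance flags about 1 group in 20. In ASO-treated knockin, replicate 4 stood high for 3 genes that remained lower in the other libraries: Car9 at 8.47 CPM against 1.54 to 2.56 CPM, Mirt1 at 23 CPM against 6.60 to 8.25 CPM, and Ccdc63 at 6.21 CPM against 2.39 to 2.76 CPM. Replicate 3 stood low for Cic, at 98.8 CPM against 188 to 194 CPM. Most of the 60 named genes were chosen from calls made without replicate 4, so its place among them is a description.

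The other 8 were in vehicle-treated groups and were small in size. In wild type, Calb1 was low in replicate 4 at 1197 CPM against 1270 to 1282 CPM, and Kcna6 was low in replicate 1 at 119.7 CPM against 129 to 130.3 CPM. Unc13d was high in wild type replicate 1 at 12.2 CPM, Mybpc3 in replicate 2 at 52.5 CPM, Fcrls in replicate 2 at 7.77 CPM, Cd84 in replicate 4 at 2.07 CPM and Trem2 in replicate 4 at 7.86 CPM. In vehicle-treated knockin, Lhx5 was low in replicate 2 at 10.3 CPM against 11.4 to 11.5 CPM.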

How the results depend on the processing

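With all libraries, the 0 calls of edgeR became 419 with DESeq2 (152 higher, 267 lower, 285 remained, 33 new) and 397 with limma voom (96, 301, 364, 3). Leaving out 1 library gave 0 to 333 calls, 0 to 131 higher, 0 to 202 lower, 0 to 213 remained and 0 to 30 new, all of them above 0 only without ASO knockin replicate 3 or 4. Without both there were 1336 (559, 777, 1078, 48), a setting chosen after seeing the data, as were thinning and most alternatives without replicate 4. Without replicate 4 the 333 calls became 987 with DESeq2 (393, 594, 572, 114), 1038 with voom (397, 641, 859, 64) and 71 with only both compared groups in the fit (36 higher, 35 lower). Leaving out a further library gave 117 to 1336 calls, 54 to 559 higher, 63 to 777 lower, 69 to 1078 remained and 17 to 48 new. The lowest came without wild type replicate 2 (17 new without vehicle knockin replicate 1) and the highest without ASO knockin replicate 3. Without ASO knockin replicate 2 there were 194, and without any 1 wild type library 117 to 142. Apart from the smaller number of libraries, the cause was not tested. With no filter on low counts 253 were called. RLE scaling, upper quartile scaling, halved counts and thinning gave 333 to 358.

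The replicate block gave 0 calls with all libraries (1880 genes at an unadjusted p under 0.05) and 79 without replicate 4 (34 higher, 45 lower, 54 remained, 9 new). Numbers did not pair the libraries: same-number correlations between ASO-treated knockin and wild type ran from -0.295 to 0.141, and 2 of 4 libraries correlated best with their own number.

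Of 52 named genes called without replicate 4, 20 lost the call under the block, 23 with only both groups, 13 to 17 without 1 wild type library, 7, 11 and 0 without ASO knockin replicates 1, 2 and 3, and 0 changed sign. Genes that did not pass did change sign, by small values. Atxn1l was at 0.0484 with voom and 0.0659 without replicates 3 and 4, ran from -0.299 to 0.0395 on leaving out 1 library and, without replicate 4, was at 0.0552 with voom and ran from -0.478 to 0.0659. Leaving out 1 library took Pcp2 from -0.407 to 0.0544 and, without replicate 4, from -0.53 to 0.137, and Cck without replicate 4 from -0.471 to 0.0239. Vegfa was at -0.00104 with RLE scaling and -0.00114 with DESeq2 and ran from -0.0232 to 0.0821, and without replicate 4 it was at -0.0155 under the block and ran from -0.0544 to 0.12. Depth ranges did not overlap between ASO-treated knockin and wild type, and levels under 1 CPM rest on few reads.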

Other observations

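Of the 90 genes called without ASO knockin replicate 4 that were neither remaining nor new, 56 were higher and 34 lower. The following single genes were chosen after their values were seen and stand for no group. Mki67 (1.48), Top2a (1.52) and Pbk (1.46), genes of dividing cells, rose, as did Mmp12 (3.32), Lgals3 (1.41), Itgam (0.96), Ptprc (0.85) and Gpr34 (0.65). Lower among them were Lgr6 (-1.09), Ret (-0.56) and Kirrel3 (-0.50).

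The count columns end in numbers that the labels do not explain. Those of cerebellum ASO knockin replicates 1 and 2 recur in the 18-week ASO-treated libraries of medulla and pons, as replicates 1 and 3. Atxn1 there was at 13.4 and 21.0 CPM (medulla) and 16.3 and 23.9 CPM (pons), beside 43.0 to 49.3 CPM in vehicle-treated knockin libraries of both regions. Clec7a was at 22.2 and 5.62 CPM (medulla) and 14.6 and 6.28 CPM (pons), beside 0.837 to 1.70 CPM in vehicle-treated knockin libraries of both regions. Gfap was at 1555 and 820 CPM (medulla) and 766 and 574 CPM (pons). Wild type replicate 3 of medulla and of pons, which share a number with each other and with no cerebellum column, also held high Clec7a, at 11.6 and 13.2 CPM, with Atxn1 at 15.2 and 16.4 CPM. ASO-treated replicate 2 of medulla and of pons, which likewise share a number absent from cerebellum, held Clec7a at 1.66 and 1.33 CPM, with Atxn1 at 38.7 and 50.4 CPM. Atxn1 was thus lower in these wild type libraries, and higher in these ASO-treated libraries, than in the others of their label and region. All 4 are named here by their labels, and whether the labels are right was not tested.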
